A study of Mus musculus with 108 samples.

Results

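Collagens are the triple-helical proteins that give extracellular matrix its strength, and each chain has its own gene. The collagen genes described here are the 44 protein-coding rows, of 53465 rows in the deposited count table, whose symbols have the form Col, number, a, number. RNA was sequenced from cortex (CX), hippocampus (HIP) and cerebellum (CB), dissected as bulk tissue from each mouse, late in gestation (E17.5), in the first postnatal week (P7) and in adults (P35 in the labels). At each period there were 6 wild-type (WT) and 6 Cul3+/- (HET) mice, and 1 library per mouse and region. Of these 108 libraries, 102 from 34 mice were used, because for 2 adult mice (P35_22 and P35_23) the labels and the study's own quality table name opposite genotypes. The adult groups therefore held 5 mice each. The labels name the strain C56Bl/6N. HET mice carry in their germline, in every cell, 1 Cul3 allele with a frameshift made by CRISPR/Cas9 in exon 6, bred from 1 founder, and WT mice carry no edited allele. Cul3 encodes the scaffold of a family of ubiquitin ligases. Nothing was given to the mice as a treatment, and their sex is not in the labels.

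Fibrillar collagens (I, II, III, V, XI, XXIV, XXVII) pack into fibrils, collagen IV forms the sheet of basement membranes, collagen VI forms beaded microfibrils, and fibril-associated collagens decorate fibril surfaces. In the brain, fibrils lie mostly in the meninges and around larger vessels, collagen IV lies under endothelium and the pia, and some transmembrane collagens, Col25a1 among them, are made by neurons. New chains are hydroxylated and folded in the endoplasmic reticulum, leave it in enlarged COPII carriers, and are trimmed and cross-linked outside the cell. The Cul3 ligase with the adaptor Klhl12 is known to ubiquitylate the COPII coat protein Sec31 and so to enlarge those carriers.

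The 250 bases upstream of the RefSeq start site (GRCm38.p6) could be read for 35 of the 44 members. Col3a1 and Col25a1 are printed because their levels differed most plainly in course among the abundant members (Col3a1 high at P7, Col25a1 highest in adult HIP), and the third sequence because it is the whole gap between a divergent pair. Capitals mark matches on either strand to a TATA box spelled TATAAA, to the CCAAT box, or to a GC box spelled GGGCGG, and a match is only a match of letters. The windows are chr1:45311288-45311537 on the plus strand for Col3a1, chr3:130180595-130180844 on the plus strand for Col25a1, and the 71 bases at chr1:82586850-82586920, read on the minus strand, between the start of Col4a4 and the start of Col4a3.
Col3a1: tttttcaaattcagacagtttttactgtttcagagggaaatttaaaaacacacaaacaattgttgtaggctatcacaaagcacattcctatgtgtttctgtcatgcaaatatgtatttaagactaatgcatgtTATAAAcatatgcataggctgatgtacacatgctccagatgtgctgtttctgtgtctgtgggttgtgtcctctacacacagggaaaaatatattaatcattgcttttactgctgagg
Col25a1: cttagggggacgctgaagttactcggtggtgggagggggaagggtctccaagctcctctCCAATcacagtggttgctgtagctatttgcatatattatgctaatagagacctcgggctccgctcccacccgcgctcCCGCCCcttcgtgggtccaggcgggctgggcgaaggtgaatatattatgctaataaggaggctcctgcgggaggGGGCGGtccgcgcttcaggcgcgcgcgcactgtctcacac
Col4a4: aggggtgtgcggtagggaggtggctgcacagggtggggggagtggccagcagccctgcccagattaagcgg

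The Col3a1 window held TATAAA, the Col25a1 window held CCAAT and GGGCGG, and the gap between Col4a4 and Col4a3 held none of them. TATAAA was found in 14.29% of the members' windows and 12.97% of 27025 windows of all genes, and CCAAT in 34.29% and 34.46%. GGGCGG was found in 60.0% of the members' windows against 32.94% of all windows, beside a median GC content of 59.6% against 52.0%. Other collagen IV chains also lie head to head. Col4a1 and Col4a2 overlap by 22 bases at their 5′ ends on chromosome 8, and Col4a6 and Col4a5 start 1308 bases apart on chromosome X.

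Library totals ran from 15126114 to 44411282 expected counts (median 32614828), and levels are given as CPM, the count scaled to library size with TMM factors over all libraries. Cul3, the targeted gene, was lower in HET in each of the 9 period and region datasets, in E17.5 CX at 115 ± 3.65 CPM against 198 ± 6.34 (SD, n = 6 each), and no range overlapped. The following HET libraries stood apart in collagen level before any comparison. In P7 HIP HET replicate 1 the 44 members summed to 2181 CPM, against 999.6 to 1389 in the other libraries of its group, and a list of 17 meningeal fibroblast markers summed to 526 CPM against 167 to 230. In E17.5 CB HET replicate 5 the members summed to 1495 CPM against 760 to 894, and the meningeal list to 182 CPM against 47.8 to 68.6. In P7 CB HET replicate 1 the members summed to 1850 CPM against 1444 to 1514, and the meningeal list to 447 CPM against 262 to 315. Mural cell markers were highest there too: 543 CPM in the P7 HIP library (others at most 466), 276 in E17.5 CB (at most 258) and 398 in P7 CB (at most 377). Endothelial markers were at 366 (at most 317), 243 (at most 191) and 324.0 CPM (at most 323.9), in that order. Choroid plexus markers stood apart only in the P7 HIP library, at 4411 CPM (others at most 45.4). Replicate numbers at P7 and in adults do not always follow the mouse across regions. The P7 HIP library came from mouse P7_C1_3, whose CB library (replicate 2) summed to 1504 CPM. The P7 CB library came from another mouse, P7_C1_7, whose HIP library (replicate 2) summed to 1041 CPM. No collagen gene is in any marker list used here. In bulk tissue, fewer cells of a type and less RNA per cell cannot be told apart.

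Nearly all collagen genes had reads in these tissues. In WT mice 26 of the 44 members had a mean of at least 1 CPM in all 9 groups, and only Col10a1 and Col6a6 had it in none. The summed level in WT CX was 481 ± 49.7 CPM at E17.5, 888 ± 95.9 at P7 (SD, n = 6 each) and 464 ± 30.5 in adults (n = 5). In WT HIP the corresponding sums were 1027 ± 255, 1113 ± 154 and 511 ± 55.1 CPM, and in WT CB 850 ± 89.0, 1422 ± 140 and 596 ± 38.6 CPM. The P7 libraries lay above both other ages in CX and CB, with no overlap, whereas in HIP the E17.5 and P7 ranges overlapped (818 to 1406 and 937 to 1344 CPM) and the adult libraries lay below both (445 to 575 CPM).

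**Figure D1:**
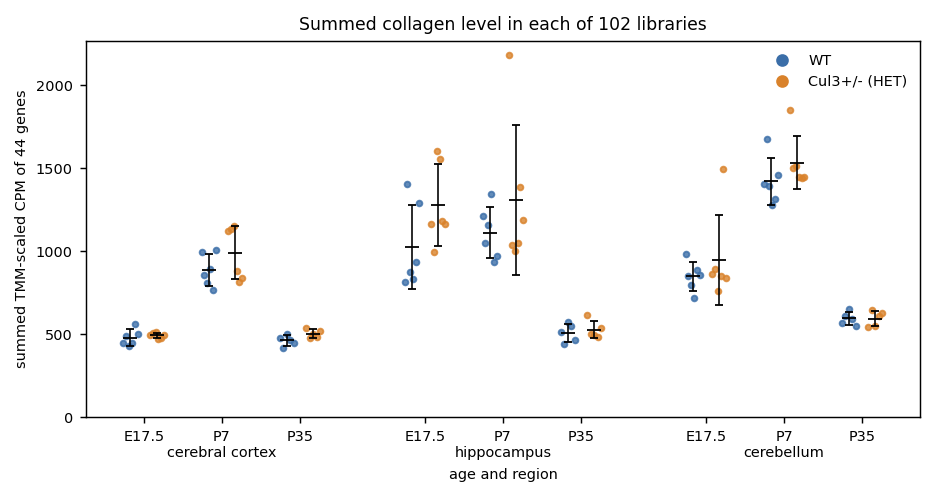
Summed CPM of the 44 collagen genes in each library (points), by region and period for WT and HET, with mean and SD as bars. Sums are lower in adult than in P7 libraries in every region, and the HET libraries at 2181 CPM (P7 HIP), 1495 CPM (E17.5 CB) and 1850 CPM (P7 CB) lie above their groups.

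The genes that made up these sums changed with age and region. Col4a1 and Col4a2, the 2 chains of the ubiquitous collagen IV trimer, held 47.8% of the sum in E17.5 CX and 13.8% in adult CB of WT mice. Col1a1, Col1a2 and Col3a1, the chains of fibrillar collagens I and III, held 3.26% of it in E17.5 CX and 28.8% in P7 CB. Col25a1, a transmembrane collagen of neurons, was the leading member in adult HIP with 21.4% of the sum. Col18a1, the endostatin-bearing collagen of basement membranes, led in adult CB with 15.7%. Levels were also taken per kilobase of exon, for a rough comparison of genes, with all annotated exons of a gene together as its length. Close ranks depend on that choice of length. On this scale Col4a1 had the highest mean level in 7 of the 9 WT groups, for example 33.3 CPM per kb in P7 HIP. Col6a1, a collagen VI chain, led in adult CX with 7.99 CPM per kb, just above Col4a1 with 7.37. Col9a3, a chain of the fibril-associated collagen IX, led in adult CB with 14.6 CPM per kb, ahead of Col18a1 with 13.4.

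**Figure D2:**
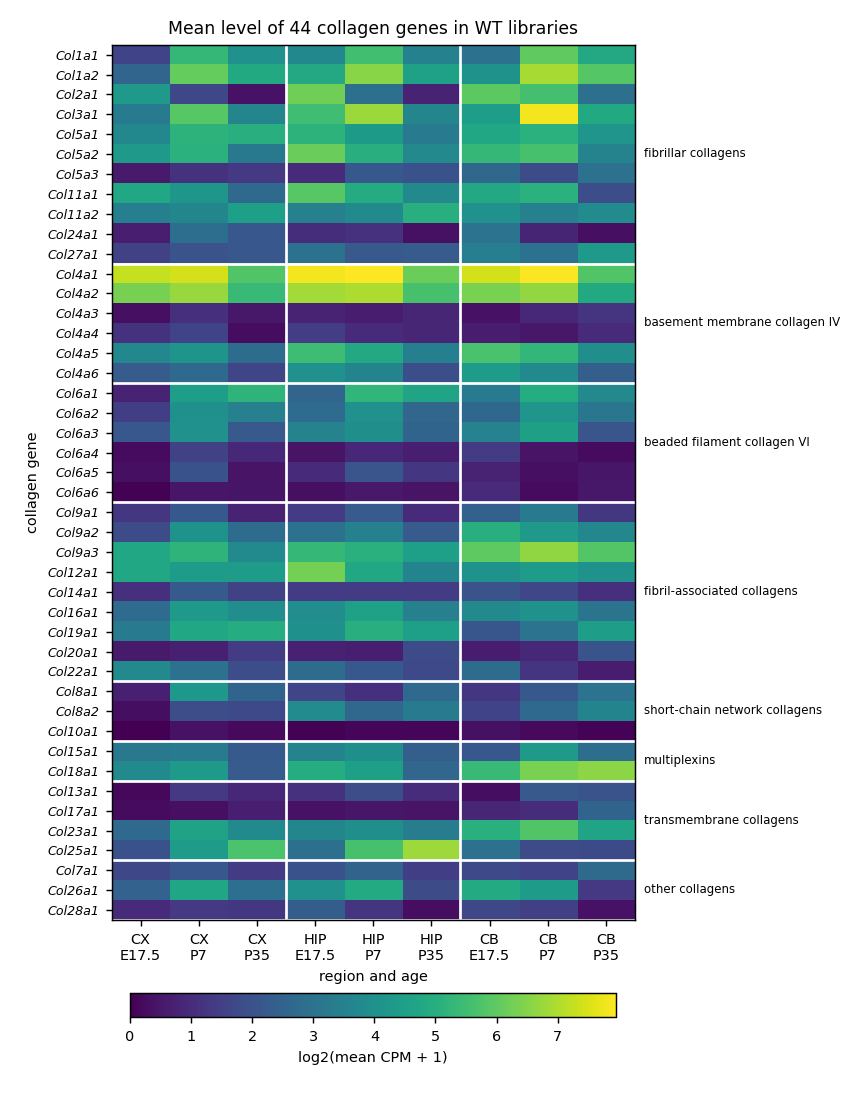
Mean level of each of the 44 collagen genes, as log2(mean CPM + 1), in the 9 WT groups, with genes ordered by structural class. Col4a1 and Col4a2 are high throughout, Col25a1 is high in CX and HIP after birth, and Col18a1 is high in CB.

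Chains that share a trimer did not keep one ratio. Col4a1 per kb over Col4a2 per kb had a median of 1.72 over the 102 libraries and ranged from 1.07 to 2.26. In WT CX its median was 1.74 (1.53 to 1.86) at E17.5 and 1.19 (1.18 to 1.27) in adults, with no overlap, while in adult CB it was 1.91 (1.44 to 1.98). Col1a1 over Col1a2 had a median of 0.89 (0.452 to 1.73). The ratio of Col6a1 to Col6a2, both collagen VI chains, moved most: its WT median was 0.505 in E17.5 CX, 2.63 in P7 CX and 6.66 in adult CX, and 9.27 in adult HIP. In CB it stayed near 3 at all ages (medians 3.11, 3.31 and 3.11). The WT means in E17.5 CX were only 0.692 CPM for Col6a1 and 1.78 for Col6a2, so the low ratio there rests on few reads. These ratios are a description with no test, and their size, though not their change between groups, depends on the exon lengths used.

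The first comparison asks how collagen expression differs between ages within a region, in the groups of WT mice. Between E17.5 and P7 in CX, 24 of 43 members tested rose and 1 fell at an adjusted p of at most 0.1 and at least a 2-fold change, where 23.5% of all 19257 genes rose and 14.7% fell. The median member log2 fold change was 1.45, against 0.02 over all genes. In HIP 11 of 43 rose (3366 of 19245 genes did) and 6 fell (14.2%, close to the members' share), and in CB 12 of 44 rose (10.5%) and 7 fell (10.8%). From P7 to P35 the direction turned. In CX 3 of 43 rose (10.7% of all genes) and 24 fell (12%). In HIP 4 of 43 rose (8.43%, close to the members' share) and 25 fell (10.3%), and in CB 8 of 44 rose (16.9%, close as well) and 22 fell (17.9%). The median member log2 fold changes at that step were -1.19, -1.17 and -1.01, against -0.03, 0.00 and 0.01 over all genes.

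**Figure D3:**
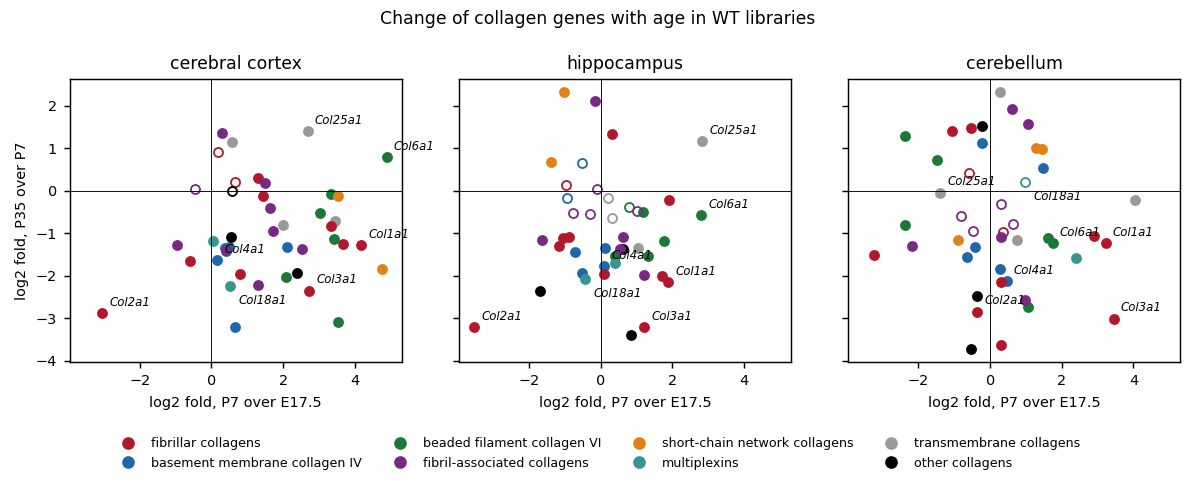
Log2 fold change of each collagen gene in WT mice from E17.5 to P7 (x axis) and from P7 to P35 (y axis), 1 panel per region, coloured by structural class and filled where called at either step. Most CX genes lie to the lower right (higher at P7, lower in adults), and Col25a1 lies to the upper right in CX and HIP. The P7 libraries enter both axes.

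Among fibrillar collagens, Col1a1, Col1a2 and Col3a1 rose to P7 and fell to P35 in all 3 regions. Col3a1 in WT CB was 6.08, 14.7 and 54.3 CPM (lowest, median, highest of 6) at E17.5, 184, 214 and 320 CPM at P7, and between 25.5 and 31.7 CPM in the 5 adult libraries. All P7 libraries lay above all others, and the step up was 3.44 ± 0.53 and the step down -3.01 ± 0.56 (log2 fold change ± SE). In CX, Col1a1 went from 2.05 ± 0.952 CPM (SD, n = 6) to 38.1 ± 9.5, a log2 fold change of 4.18 ± 0.32 or 18.1-fold, and then to 15.3 ± 4.31 (n = 5). Col1a2 rose by 3.68 ± 0.29 and 2.89 ± 0.36 on the log2 scale in CX and CB, and by 1.71 ± 0.44 in HIP. In HIP the E17.5 libraries were already spread widely, Col3a1 from 7.73 to 101 CPM, and its rise of 1.22 ± 0.42 came with overlapping ranges.

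Other fibrillar chains followed other courses. Col2a1, the major collagen of cartilage that is also made by embryonic neural tissue, fell in CX from 18.5 ± 9.46 CPM at E17.5 to 2.31 ± 1.07 at P7 and 0.299 ± 0.0667 in adults, and in HIP from 74.5 ± 33.9 to 6.6 ± 1.11 and 0.685 ± 0.139 CPM. In CB it was 60.5 ± 12.8 and 47.6 ± 3.76 CPM at the first pair of ages and fell only at the later step, to 6.61 ± 1.61 (-2.84 ± 0.16 log2). Col11a1, which seeds thin fibrils, fell from P7 to P35 in every region, most in CB (33.2 ± 0.736 to 2.66 ± 0.658 CPM, -3.62 ± 0.14 log2). Col5a1, a fibril-nucleating chain, rose in CX to P7 (12.2 ± 2.17 to 34.5 ± 6.42 CPM, 1.45 ± 0.15 log2) and its fold change in CX from P7 to P35 was -0.11 ± 0.15. Col5a1 fell in HIP at that step (-1.08 ± 0.26). Col11a2 rose in HIP from P7 to P35, from 12.8 ± 2.69 to 31.4 ± 2.18 CPM (1.33 ± 0.17 log2).

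The collagen IV chains of vascular and pial basement membranes mostly kept their level through birth and fell later. Col4a1 was 151 ± 25.9, 174 ± 20.1 and 55 ± 2.58 CPM in WT CX over the 3 ages, and its log2 fold change from E17.5 to P7 was between 0.09 and 0.46 in the 3 regions, under the 2-fold limit. Its fall from P7 to P35 was -1.63 ± 0.10 in CX, -1.78 ± 0.14 in HIP and -2.13 ± 0.12 in CB, and no adult library reached any P7 library. Col4a2 fell at the same step by -1.35 ± 0.10, -1.33 ± 0.16 and -1.84 ± 0.13. Col4a5 and Col4a6, chains of a further trimer, fell in all 3 regions too, for example Col4a5 in CX by -1.42 ± 0.17. Col4a4, with low counts, fell in CX from 2.03 ± 1.08 to 0.206 ± 0.0825 CPM and rose in CB from 0.442 ± 0.277 to 0.955 ± 0.488 CPM.

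All 6 collagen VI genes rose to P7 in CX. Col6a1 was between 0.246 and 1.96 CPM (median 0.38) at E17.5 and between 16.6 and 26.5 CPM (median 19.9) at P7, a log2 fold change of 4.89 ± 0.34 or 29.6-fold, the largest of any member at that step. In CX Col6a1 then was 35 ± 2.73 CPM in adults (0.79 ± 0.26, under 2-fold), while in CB it rose by 1.74 ± 0.32 and fell by -1.22 ± 0.33. Col6a3 fell from P7 to P35 in all regions, in CB from 21.8 ± 4.68 to 3.26 ± 0.343 CPM. Col6a5 rose in CX from 0.246 ± 0.152 to 2.99 ± 0.488 CPM and fell back to 0.341 ± 0.0887. In CB, by contrast, Col6a4, Col6a5 and Col6a6 fell from E17.5 to P7, Col6a6 from 0.912 ± 0.265 to 0.176 ± 0.0652 CPM.

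The network collagen Col8a1, found in vessel walls, rose in CX from 0.64 ± 0.34 to 18 ± 3.3 CPM (4.77 ± 0.30 log2) and fell to 4.9 ± 0.885. Among multiplexins, Col18a1 was 41.5 ± 2.76, 81.3 ± 5.95 and 93.8 ± 14.1 CPM in CB over the 3 ages, whereas from P7 to P35 it fell in CX from 18.6 ± 2.47 to 3.86 ± 0.574 CPM (-2.24 ± 0.23) and in HIP from 22.2 ± 3.34 to 5.12 ± 1.64 (-2.08 ± 0.30). Its CB steps were 0.96 ± 0.10 and 0.22 ± 0.10, both under 2-fold. Col26a1 fell by -3.72 ± 0.13 in CB from P7 to P35, the largest fall of a member there, from 19.9 ± 1.97 to 1.5 ± 0.231 CPM. Col9a1, a fibril-associated chain, rose to P7 in CX and HIP and fell in all 3 regions afterwards.

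Col25a1 went the other way. In WT HIP its 6 E17.5 libraries held 5.08, 6.75, 2.20, 2.07, 9.13 and 14.5 CPM, its P7 libraries between 41.0 and 60.4 CPM (median 48.3), and its 5 adult libraries 115, 107, 114, 102 and 108 CPM. Every library of a later age lay above every library of an earlier one, with log2 steps of 2.83 ± 0.32 and 1.18 ± 0.30. In CX it was 2.99 ± 1.25, 20 ± 8.68 and 51.6 ± 7.53 CPM (2.69 ± 0.27 and 1.41 ± 0.25), and 1 P7 library (37.5 CPM) stood above the other P7 libraries (15.2 to 18.8 CPM). In CB it fell from 6.79 ± 1.92 to 2.59 ± 0.883 CPM (-1.40 ± 0.27) and was 2.49 ± 0.446 CPM in adults. Col19a1, a fibril-associated collagen made by some interneurons, rose at both steps in CB (3.43 ± 0.552, 7.17 ± 1.3 and 21 ± 1.25 CPM). Col20a1 was the only member to rise from P7 to P35 in all 3 regions, with adult means of 1.6, 2.51 and 3.23 CPM in CX, HIP and CB.

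**Figure D4:**
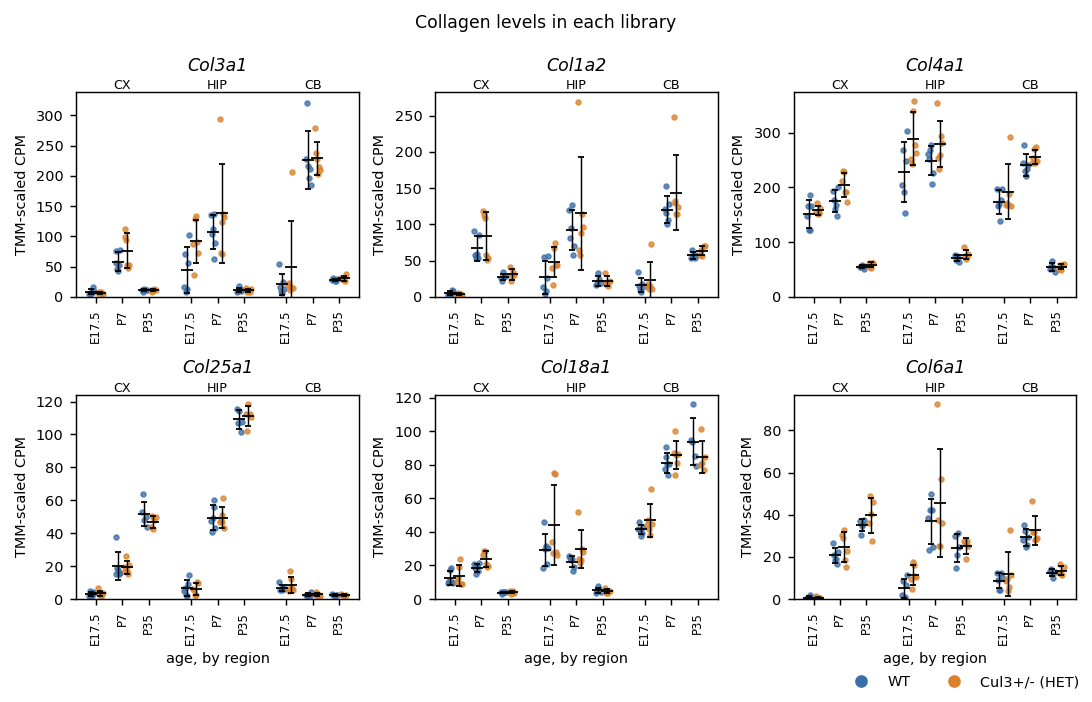
CPM of Col3a1, Col1a2, Col4a1, Col25a1, Col18a1 and Col6a1 in every library (points), by region and period for WT and HET, with mean and SD as bars. Col3a1 is highest at P7 (184 to 320 CPM in WT CB), Col25a1 is highest in adult HIP (102 to 115 CPM in WT) and Col18a1 is highest in postnatal CB.

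The same ages were compared in HET mice in the same models. Of the members called in WT, the share called with the same sign in HET between E17.5 and P7 was 25 of 25 for CX, 13 of 17 for HIP and 16 of 19 for CB. Between P7 and P35 it was 24 of 27, 27 of 29 and 25 of 30. None was called with opposite signs. The agreement of the genotypes over all genes was not counted, so these counts describe the members only. In HET, 24 members rose and 2 fell in CX (23.3% and 15.1% of all genes), 14 rose and 6 fell in HIP (20% and 12.3%), and 12 rose and 6 fell in CB (11.3% and 10.5%) at the first step. At the second step 3 rose and 22 fell in CX (11.7% and 11.7%), 3 rose and 28 fell in HIP (8.1% and 12.7%), and 4 rose and 24 fell in CB (14.7% and 18.5%). The 14 members that fell from P7 to P35 in all 3 regions had the same names in both genotypes: Col1a1, Col1a2, Col2a1, Col3a1, Col4a1, Col4a2, Col4a5, Col4a6, Col5a2, Col6a3, Col9a1, Col11a1, Col15a1 and Col26a1. How many of all genes fell in all 3 regions was not counted.

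Markers of some of the cells that make collagen rose at the first step as well. Of the meningeal, mural and endothelial lists, the meningeal one rose most. Of 17 meningeal fibroblast markers (such as Dcn, Lum and Foxc1), 16 rose from E17.5 to P7 in WT CX, 10 in HIP and 15 in CB, and 0 fell. Their summed level went from 38.3 to 48.4 CPM at E17.5 to 166 to 239 CPM at P7 in CX, and from 42.2 to 80.7 to 254 to 360 CPM in CB. Of the mural cell markers, 6 of 12 rose in CX and 5 of 12 in HIP, CB having 7 of 13, and of 11 endothelial markers 2, 1 and 5 rose. Of all genes, 23.5% rose in CX, 3366 of 19245 in HIP and 10.5% in CB. The endothelial counts in CX and HIP were not above those shares. From P7 to P35, 1 meningeal marker rose and 2 fell in CX (10.7% and 12% of all genes). It was 0 and 4 in HIP (8.43% and 10.3%) and 3 and 2 in CB (16.9% and 17.9%). Some marker sums were lower in adults as well. The meningeal sum was 93.2 to 130.5 CPM in adult CX and 194 to 216 CPM in adult CB, below all P7 libraries, while in HIP it was 132 to 275 CPM at P7 and 98.8 to 166 CPM in adults. The mural sum was lower in adults in all 3 regions with no overlap, in HIP 244 to 294 CPM against 376 to 453 CPM at P7. The endothelial sum overlapped between these ages in every region, in CX 203 to 237 CPM at P7 and 225 to 283 CPM in adults. The part of these cells in the age differences was not tested.

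The second comparison asks how the regions of the same WT mice differ at one age, with the mouse as a block. At E17.5, 26 of 43 members were higher in HIP than in CX and 1 was lower, where 9.67% and 3.52% of 18637 genes were, and 30 were higher in CB than in CX and 4 lower (14.3% and 6.1%). CB against HIP gave 11 higher and 7 lower (9.35% and 6.45%). Col6a1 was higher in CB than in CX (8.7 ± 3.7 against 0.692 ± 0.669 CPM, 3.97 ± 0.57 log2), as was Col9a2, a collagen IX chain (31.8 ± 3.07 against 2.62 ± 0.699 CPM, 3.66 ± 0.22). Col12a1, a fibril-associated collagen of dense connective tissue, was 78.5 ± 11.3 CPM in HIP and 15.8 ± 2.03 in CB (-2.31 ± 0.15). Col19a1 and Col22a1 were lower in CB than in CX, Col19a1 by -1.32 ± 0.17. The meningeal list summed to 42.1 ± 4.54 CPM in CX, 101 ± 35.3 in HIP and 53.0 ± 15 in CB, and its part in these differences was not tested.

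At P7 fewer members separated HIP from CX, 4 higher and 7 lower of 44 (4.6% and 6.93% of 19381 genes). CB had 14 higher and 9 lower than CX (15.3% and 18.6%) and 8 higher and 8 lower than HIP (12.5% and 15.3%). The 9 lower than CX, and the 8 higher and 8 lower than HIP, are close to the shares over all genes. Col8a1 was 18 ± 3.3 CPM in CX and 1.15 ± 0.306 in HIP (-4.01 ± 0.62 log2). Col2a1 was 47.6 ± 3.76 CPM in CB and 2.31 ± 1.07 in CX (4.47 ± 0.19), and Col3a1 was 226 ± 48.6 CPM in CB and 58.3 ± 15 in CX (2.04 ± 0.24). The meningeal sum was 254 to 360 CPM in P7 CB and 166 to 239 CPM in P7 CX, without overlap, and its part was not tested. Col24a1, a fibrillar chain, was highest in CX with 6.29 ± 1.01 CPM against 1.19 ± 0.364 in HIP and 0.762 ± 0.59 in CB. Col23a1, a transmembrane collagen, was 54.4 ± 3.25 CPM in CB and 14.6 ± 2.02 in HIP (1.97 ± 0.11).

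In adults 7 members of 43 were higher and 4 lower in HIP than in CX (5.29% and 7.19% of 19034 genes), 17 higher and 8 lower in CB than in CX (12.1% and 16.2%), and 13 higher and 6 lower in CB than in HIP (12.5% and 15.9%). The counts of lower members are close to the shares over all genes. Col18a1 and Col25a1 marked the cerebellum in opposite ways. Col18a1 was 95.0, 93.6, 116, 85.2 and 79.2 CPM in CB and between 2.89 and 4.35 CPM in CX, a log2 fold change of 4.61 ± 0.15. Col25a1 was between 2.1 and 3.2 CPM in CB against 102 to 115 CPM in HIP, -5.46 ± 0.10 or the largest difference of a member between regions in adults. Col17a1, a collagen of hemidesmosomes, was 4.97 ± 1.32 CPM in CB and 0.331 ± 0.277 in HIP (3.91 ± 0.32), and Col2a1 was 6.61 ± 1.61 against 0.299 ± 0.0667 CPM in CX (4.42 ± 0.20). The meningeal sum was 194 to 216 CPM in adult CB against 93.2 to 130.5 CPM in adult CX, without overlap, and its part was not tested. Regional markers separated the dissections: the 8 markers of cerebellar neurons summed to 2666 CPM in adult CB and 146 CPM in adult CX.

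Several members of low or variable level were high in HIP libraries rich in choroid plexus. The choroid plexus makes cerebrospinal fluid, and its 9 epithelial markers (Ttr, Folr1, Kl and others) summed to 4874 CPM in E17.5 HIP WT replicate 2 and to at most 149 CPM in the other libraries of its group. In that library Col8a1 was 11.3 CPM against at most 0.796 in the others, Col8a2 63.3 CPM against at most 6.31, Col9a3 119 CPM against at most 31, Col4a3 2.63 against at most 0.574, and Col4a4 5.03 against at most 2.17. P7 HIP HET replicate 1, with a choroid plexus sum of 4411 CPM against at most 45.4, held 28.2 CPM of Col8a1 (others at most 2.92), 39.0 of Col8a2 (others at most 9.51) and 84.9 of Col9a3 (others at most 36.8). The adult HIP WT library with the highest choroid plexus sum, 2270 CPM, was also the highest of its group for all 5 of these genes. Where choroid plexus sums were low, this did not hold throughout. In E17.5 HIP HET the library with the highest sum (355 CPM, others at most 213) was highest for none of the 5 genes, and in P7 HIP WT (167 CPM, others at most 51.7) it was highest for Col8a2 and Col9a3 only. In adult HIP HET (272 CPM, others at most 56.9) it was highest for 4 of the 5, Col4a4 being the exception. Col18a1, looked at too, was highest in the choroid-richest library of E17.5 HIP WT (45.7 CPM, others at most 31.4) and P7 HIP HET (51.6, at most 30.0). The same held in adult HIP WT (7.70, at most 5.75) and adult HIP HET (6.51, at most 4.56). In E17.5 HIP HET it was barely so (74.9, at most 74.5), and in P7 HIP WT it was not (24.3, at most 25.7). The SD of Col8a2 in E17.5 HIP WT, 24.5 CPM around a mean of 13.5, goes with replicate 2, the others holding 1.67 to 6.31 CPM. The meningeal sum was also highest of its group in E17.5 HIP WT replicate 2 (148 CPM, next 142) and P7 HIP HET replicate 1 (526, next 230). It was so too in adult HIP WT replicate 3 (166, next 131), the library with 2270 CPM of choroid plexus markers. Libraries of CX and CB were not examined in this way. What either tissue adds to the differences between regions and genotypes for these genes was not tested.

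The third comparison asks whether collagen genes differ between HET and WT mice, tested within each period and region. No member was called at an adjusted p of at most 0.1 in any of the 9 datasets by edgeR's quasi-likelihood test, in which Cul3 was the only gene called. A single gene is 0.00603% of the genes tested in E17.5 CX, 0.00586% in E17.5 HIP, 0.00568% in E17.5 CB, 0.00566% in P7 CX, 0.00563% in P7 HIP, 0.0057% in P7 CB, 0.00569% in adult CX and 0.00584% in adult HIP and adult CB. The smallest adjusted p of a member was 0.293. Of 367 tests of members, 36 had an unadjusted p under 0.05, and 29 of these were higher in HET. Per dataset the members at that level were 1 higher and 1 lower in E17.5 CX (0.585% and 1.08% of all genes), 2 and 0 in E17.5 HIP (1.31% and 0.979%), 2 and 0 in E17.5 CB (1.66% and 1.84%), 4 and 1 in P7 CX (1.52% and 1.7%), 5 and 0 in P7 HIP (3.45% and 1.6%), and 6 and 0 in P7 CB (3.78% and 1.11%). In adults they were 4 and 0 in CX (2.07% and 1.59%), 3 and 1 in HIP (3.4% and 2.84%), and 2 and 4 in CB (5.71% and 8.66%). Over all 9 datasets, 9.81% of the members' tests and 4.99% of 156039 tests of all genes had such a p, and 7.9% and 2.62% had it with a higher level in HET. These counts moved by over 1.5 times in every dataset when 1 library was left out, in E17.5 HIP from 2 to 9 without WT replicate 2 or 6, in P7 HIP from 5 to 11 without HET replicate 4 and to 3 without HET replicate 1, and in P7 CB from 6 to 12 without WT replicate 2. DESeq2 called 2 members, Col4a6 and Col19a1, in adult CB, where it called 1.27% of all genes, and 0 in the other 8 datasets. With 3 RUVs factors, which estimate unwanted variation from replicates, 8 member calls were made over 5 datasets: 1 in E17.5 HIP (0.346% of all genes), 1 in P7 HIP (0.732%), 2 in P7 CB (0.371%), 3 in adult HIP (1.14%) and 1 in adult CB (0.397%), among them Col8a2 in P7 HIP and P7 CB. In E17.5 CX same-numbered WT and HET libraries deviated together and were taken as pairs, though no label pairs them. A fit with that replicate block called 55 genes (0.331%) and again 0 members, the smallest adjusted p of a member being 0.131 (edgeR quasi-likelihood).

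The sign of the fold change was counted as a description. It was above 0 for 36 of 43 members in E17.5 CB (51.1% of all genes), 39 of 43 in P7 HIP (52.5%) and 36 of 42 in P7 CB (51.7%), with median log2 fold changes of 0.11, 0.22 and 0.15. These counts rest in part on the libraries that stood apart. Without E17.5 CB HET replicate 5, 20 of 43 were above 0 (median -0.02), and without P7 HIP HET replicate 1, 25 of 43 were (median 0.01), while without P7 CB HET replicate 1, 33 of 42 were (median 0.08). The other datasets gave 20 of 36 in E17.5 CX (49.5% of all genes), 28 of 40 in E17.5 HIP (50.8%), 25 of 42 in P7 CX (50.0%), 33 of 41 in adult CX (52.0%), 25 of 39 in adult HIP (48.7%) and 21 of 41 in adult CB (50.3%). Meningeal fibroblast markers lay mostly above 0 in several of these datasets, 13 of 15 in E17.5 CB, 14 of 15 in E17.5 HIP, 15 of 17 in P7 HIP and 17 of 17 in both P7 CX and P7 CB. In adult CX, leaving out 1 mouse gave 28 to 36 of 41 members above 0. The meningeal sums overlapped there, at 101 to 135 CPM in HET and 93.2 to 130.5 CPM in WT. They overlapped as well in each dataset of the meningeal marker counts above, in P7 CB at 262 to 447 CPM in HET and 254 to 360 CPM in WT. In P7 CB the choroid plexus markers differed more, with a median sum of 1511 CPM in HET (30.6 to 2776) and 36.7 CPM in WT (20.3 to 1535), and 9 of 9 lay above 0. The part of either tissue in the members' differences was not tested.

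**Figure D5:**
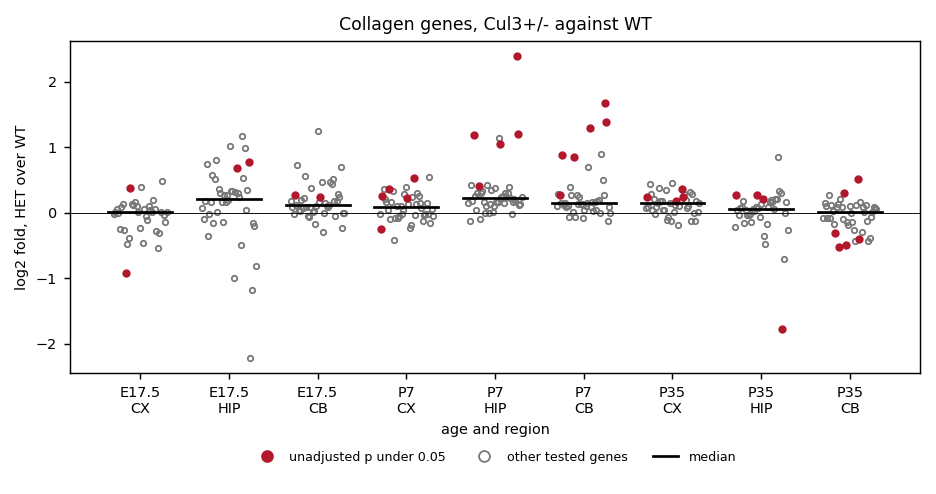
Log2 fold change, HET over WT, of the collagen genes tested in each of the 9 datasets (points), with red points at an unadjusted p under 0.05 and black bars at the median. Medians lie between 0.01 and 0.22, and no point passes the adjusted threshold.

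Col4a6 had the smallest p of a member. In adult CB its WT libraries held 4.06, 5.23, 4.62, 4.31 and 3.51 CPM and its HET libraries 6.10, 6.20, 6.75, 6.80 and 5.78 CPM. All HET libraries lay above all WT libraries, as for 2.03% of the genes tested, and the log2 fold change was 0.52 ± 0.11 (unadjusted p = 0.00049 and adjusted p = 0.293, edgeR quasi-likelihood). The mural marker sum did not overlap there either, at 309 to 335 CPM in HET and 265 to 304 CPM in WT, and its part was not tested. The fold change of Col4a6 was above 0 in all 9 datasets, from 0.04 to 0.68, as was that of Col5a2, Col12a1 and Col16a1. DESeq2 gave an adjusted p of 0.0121 and edgeR's likelihood ratio test (0.877% of all genes called) 0.0361 for Col4a6 in adult CB, and over the other settings it was called with RUVs factors too (0.0523). Col19a1 in adult CB was the next by p, 17.3 CPM in HET against 21.0 in WT (-0.31 ± 0.08, adjusted p = 0.293 by edgeR and 0.0529 by DESeq2).

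Further members had ranges that did not overlap. Col11a2 in adult HIP was between 34.1 and 42.9 CPM in HET and between 28.5 and 33.4 in WT (0.27 ± 0.07, adjusted p = 0.796 by edgeR), as for 0.514% of genes. Col4a2 in adult CX was 43.7 to 47.8 CPM against 36.4 to 43.2 (0.18 ± 0.06, adjusted p = 0.997), as for 0.211%. Col22a1 in P7 CB was 1.61 to 4.49 CPM against 1.12 to 1.57 (0.85 ± 0.24, adjusted p = 0.915), as for 0.125%. Col8a1 had the widest fold changes between genotypes, from -2.22 to 2.40 over the datasets, and is 1 of the genes described beside the choroid plexus markers. In E17.5 CX, Col1a1 was 1.09 CPM in HET and 2.05 in WT (-0.92 ± 0.28, adjusted p = 0.991), and in P7 CX Col18a1 and Col4a1 were 0.36 ± 0.12 and 0.23 ± 0.08 higher (adjusted p = 0.9 for both).

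Summing the 3 regions of each mouse gave 1 value per mouse. Again 0 members were called by edgeR, and Cul3 alone was (as 0.00499% of genes for E17.5, 0.00479% for P7 and 0.00491% for adults), while DESeq2 called Col4a6 in the adult sum, with 0.128% of all genes. Of the member tests, 23 of 131 had an unadjusted p under 0.05, 22 of them higher in HET. At P7 they were 11 of 44, all higher (4.12% of all genes, with 1.37% lower), among them Col18a1 (0.25 ± 0.06) and Col4a1 (0.18 ± 0.06), at E17.5 7 of 44, all higher (1.45%, with 1.4% lower; 3 without HET replicate 5 and 11 without WT replicate 2), and in adults 4 higher and 1 lower of 43 (3.17% and 2.95%; 3 without WT replicate 2 or HET replicate 1). The fold change was above 0 for 32 of 44 members at E17.5 (49.5% of all genes), 37 of 44 at P7 (50.8%) and 26 of 43 in adults (50.4%). In the P7 sums 17 of 17 meningeal, 12 of 13 mural, 10 of 11 endothelial and 9 of 9 choroid plexus markers also lay above 0, and their part was not tested. Whether the genotype difference changed with period or region was tested as an interaction. No member was called in any of the 6 interaction tests by edgeR, where 0 genes were called in 5 tests and 1 (0.00525%) in the adult test across regions. Members at an unadjusted p under 0.05 across periods were 2 of 43 in CX (2.1% of all genes), 4 of 43 in HIP (4.09%) and 3 of 44 in CB (13.2%). Across regions they were 2 of 43 at E17.5 (2.5%), 3 of 44 at P7 (4.57%) and 6 of 43 in adults (15.8%). DESeq2 called 2 members, Col19a1 and Col27a1, in the adult test across regions, with 1.39% of all genes, and 0 in the other 5.

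The genes that build and handle collagen were counted from 5 lists, without regard to how they moved. Of 20 folding and modification genes tested, 4 fell in CX, 4 in HIP and 6 in CB from P7 to P35, and 0, 0 and 2 rose. Most of the list was called in neither direction. Of all genes, 12%, 10.3% and 17.9% fell and 10.7%, 8.43% and 16.9% rose. Serpinh1, the collagen chaperone HSP47, went from 76.0 to 24.8 CPM in HIP (-1.57 ± 0.21) and from 139 to 41.8 CPM in CB (-1.72 ± 0.09). Creb3l1, a transcription factor of procollagen synthesis, rose from 0.339 to 3.48 CPM in CX to P7 (3.31 ± 0.25) and fell to 0.657. Between ages 0 of 13 export genes were called in WT mice except in CB from P7 to P35, where Sec24d and Sec13, COPII coat subunits, fell by -1.44 ± 0.09 and -1.03 ± 0.07. In HET mice Sec24d fell at that step in CX as well, from 26.7 to 13 CPM (-1.01 ± 0.07), and in CB from 20.4 to 8.03 CPM (-1.34 ± 0.09).

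Of 13 cleavage and cross-linking genes, 5 rose and 1 fell to P7 in CX, where 23.5% of all genes rose and 14.7% fell, shares that also stand beside the receptor and turnover counts that follow. Lox, a lysyl oxidase that cross-links collagen, went from 0.435 to 4.71 and 0.951 CPM over the 3 ages in CX (3.40 ± 0.33 and -2.26 ± 0.32), whereas Loxl1, its relative, fell from 16 to 3.85 CPM by P7 (-2.11 ± 0.25). Pcolce, the enhancer of procollagen C-proteinase, rose in all 3 regions, in CB from 0.838 to 8.92 CPM (3.41 ± 0.32). Of 10 receptors, 1 rose and 1 fell in CX by P7: Lair1, an inhibitory receptor of leukocytes, rose (1.85 ± 0.14) and Ddr1, a discoidin receptor kinase, fell (95.7 to 38.5 CPM, -1.36 ± 0.14). Adgrg1, the collagen III receptor of neural progenitors, fell in CB from P7 to P35, from 102 to 24.8 CPM (-2.04 ± 0.11). Of 8 turnover genes 5 rose and 1 fell in CX by P7. Timp4, an inhibitor of matrix proteases, rose there (0.455 to 11.1 CPM, 4.54 ± 0.25), and Mmp9, a gelatinase, fell by P7 in all 3 regions (in CB from 19.4 to 2.24 CPM, -3.13 ± 0.21).

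Between genotypes none of the 64 genes of these lists was called in any dataset by edgeR. They gave 45 tests of 560 at an unadjusted p under 0.05, or 8.04% against 4.99% of the tests of all genes, 35 of them higher in HET (6.25% against 2.62%). For the 13 export genes it was 5 of 117 (4.27%), 1 of them higher. Klhl12, the adaptor that links the Cul3 ligase to the COPII coat, had WT means between 49.5 and 63.2 CPM and log2 fold changes from -0.11 to 0.03 in the 9 datasets, with a smallest adjusted p of 0.815. Its target Sec31a lay between -0.13 and 0.03 (smallest adjusted p 0.383), and Serpinh1 between 0.00 and 0.26, above 0 in all 9 (smallest adjusted p 0.393). The share of all genes above 0 in all 9 was not counted.

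Genes with the course most like 3 members were found by Pearson correlation of mean log2 CPM over the 9 WT groups, among 20859 genes, as a description with shared libraries behind each point. For Col3a1 they were Sh3tc1 (0.987), 5430414B19Rik (0.980), Bgn (0.979), Cldn5 (0.975) and Pear1 (0.968), and among members Col6a3 (0.857) and Col1a2 (0.857). For Col4a1 they were Nid2 (0.996), a basement membrane linker protein, then Fam124b, Papss1, Foxf2 and Mmp2 (0.982 to 0.976), and Col4a2 (0.965) among members. For Col25a1 they were Gm37696, 4933412E12Rik, Gm10754, Ak5 and Clptm1l (0.978 to 0.976), and the nearest member was Col11a2 at 0.775.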

How the data were processed

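The authors trimmed reads with Cutadapt 1.14, aligned them with STAR 2.5.3a to GRCm38.p5 (mm10) and counted genes with RSEM 1.3, per the submitters' notes and the study's methods, and deposited expected counts, not normalized, in 1 table, in which 5.76% of values were not whole (an expected count splits reads among transcripts). RNA was ribosome-depleted and stranded. After rounding to whole numbers, tests used edgeR 4.0.16 under R 4.3.3 (filterByExpr with a minimum count of 10 and total of 15, TMM, quasi-likelihood), adjusted by Benjamini-Hochberg over all genes tested and called at an adjusted p of at most 0.1, and for periods and regions also at 2-fold. Replicates are mice, and regions of a mouse share it, so region fits had the mouse as a block. Lengths (all annotated exons of a gene together, not 1 transcript) and symbols came from the GRCm38 annotation. Promoter windows came from RefSeq.

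Members, gene lists and tests were chosen with earlier results of these data known. Named were 10 fixed members, the 3 largest called folds per contrast and direction, the 2 smallest p per genotype dataset, and the 2 largest called folds per list. In each contrast a selection of these is printed. Serpinh1 and export genes between genotypes, Col8a1, Col8a2, Col9a3, Col4a3, Col4a4 and Col18a1 beside choroid plexus, and the members of non-overlapping range were added after their values were seen. Same-numbered WT and HET libraries deviated together in every pair in E17.5 CX (correlation 0.113 to 0.757), so numbers were taken to pair them there. No label names such pairs. Same-numbered E17.5 mice share a part of their names, whose meaning the labels do not give. In E17.5 HIP, E17.5 CB and P7 CX 5 of 6 pairs were over 0.1 (medians 0.331, 0.294 and 0.168), and in no other dataset was every pair. No 2 replicates were alike within counting noise (240 pairs). Marker lists of cartilage, bone, skeletal muscle, blood and hippocampus were also counted. Alternatives were upper-quartile scaling, no filter, DESeq2 1.42.0, a likelihood ratio test, log2 CPM of Xist as a covariate, RUVs with 3 factors, the block, the 2 adult mice put back, and each replicate left out. The fitting code was tested on simulated data.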

Additional observations from a re-analysis of the deposited data

Results flagged for a closer look

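In groups of 4 to 10 libraries, the highest or lowest value was compared with its nearest neighbour by Dixon's criterion at 95%, for the summed level and the 10 members always described. Of 198 groups, 31 held such a library, where chance gives about 1 in 20. For the summed member level they were P7 HIP HET replicate 1 (2181 CPM, next 1389), E17.5 CB HET replicate 5 (1495 CPM, next 894), P7 CB HET replicate 1 (1850 CPM, next 1514). For Col1a1 they were E17.5 CX WT replicate 5 (3.88 CPM, next 2.06), E17.5 CB WT replicate 1 (20.5 CPM, next 6.85), E17.5 HIP HET replicate 2 (7.61 CPM, next 17.8), P7 HIP HET replicate 1 (125 CPM, next 58.2), E17.5 CB HET replicate 5 (26.2 CPM, next 6.51), P7 CB HET replicate 1 (190.3 CPM, next 67.4), P35 CB HET replicate 5 (49.8 CPM, next 26.5). For Col1a2 they were E17.5 CX HET replicate 2 (5.57 CPM, next 3.89), P7 HIP HET replicate 1 (269 CPM, next 115), E17.5 CB HET replicate 5 (73.3 CPM, next 17.8), P7 CB HET replicate 1 (248 CPM, next 132). For Col3a1 they were P7 CB WT replicate 2 (320.4 CPM, next 227), P7 HIP HET replicate 1 (294 CPM, next 137), E17.5 CB HET replicate 5 (206 CPM, next 23.6). For Col4a1 it was E17.5 CB HET replicate 5 (293 CPM, next 187). For Col4a2 it was P35 HIP HET replicate 1 (69.5 CPM, next 54). For Col5a1 they were P35 CX WT replicate 2 (18.8 CPM, next 32.4), P7 CB HET replicate 1 (41.4 CPM, next 33.9), P35 CB HET replicate 2 (20.5 CPM, next 11.5). For Col6a1 they were E17.5 CX HET replicate 1 (1.52 CPM, next 0.573), P35 HIP HET replicate 3 (18.9 CPM, next 25.2), E17.5 CB HET replicate 5 (32.7 CPM, next 11.2), P7 CB HET replicate 1 (46.3 CPM, next 31.8). For Col11a1 they were P35 HIP WT replicate 1 (17.1 CPM, next 12.7), P7 CB HET replicate 1 (43.6 CPM, next 35.5). For Col18a1 they were P7 HIP HET replicate 1 (51.6 CPM, next 30.0), E17.5 CB HET replicate 5 (65.5 CPM, next 47.2). For Col25a1 it was P7 CX WT replicate 2 (37.5 CPM, next 18.8). Most of the high values belong to the HET libraries P7 HIP replicate 1, E17.5 CB replicate 5 and P7 CB replicate 1, whose meningeal, mural and endothelial marker sums are given above. The P7 HIP and P7 CB libraries came from different mice. The cause was not tested.

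The adult mouse P35_22, labelled HET and not used in any comparison, had unscaled member sums of 443.2 CPM in CX and 609 CPM in CB, just above the highest WT libraries used (443.1 and 601 CPM). The HET libraries used ranged from 423 to 481 CPM in CX and from 499 to 608 CPM in CB, and the mouse's HIP sum, 466 CPM, lay within the WT range of 391 to 501 CPM.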

How the results depend on the processing

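Counts of members called between periods and between regions stayed within 1.5 times under every setting tried, and leaving out a replicate gave 25 to 26 in WT CX from E17.5 to P7 (25), 27 to 29 in WT HIP from P7 to P35 (29) and 29 to 32 in WT CB from P7 to P35 (30).

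For the genotype, the count of members called moved from 0 with RUVs factors to 1 in E17.5 HIP (Col7a1), 1 in P7 HIP (Col8a2), 2 in P7 CB (Col14a1 and Col8a2), 3 in P35 HIP (Col11a1, Col11a2 and Col8a1) and 1 in P35 CB (Col4a6), with DESeq2 to 2 in P35 CB, 2 in the P35 genotype by region test and 1 in the P35 sum of 3 regions (Col4a6), and with the likelihood ratio test to 1 in P35 CB (Col4a6). Leaving out a replicate gave 0 to 1 in P35 CB, the 1 being Col5a1 (-0.62) without HET replicate 2. The cause was not tested. The replicate block called 55 genes and 0 members in E17.5 CX (smallest member adjusted p 0.131) and 1 gene and 0 members in each of E17.5 HIP, E17.5 CB and P7 CX, where 5 of 6 same-numbered pairs deviated together, and it changed no other call of members between genotypes. Without TMM scaling the summed member CPM was 940.7 in E17.5 CB WT, 1731 in P7 CB HET, 412 in P35 CX WT, 452 in P35 CX HET, 452 in P35 HIP WT and 471 in P35 HIP HET.

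Of the uncalled folds, leaving out a replicate gave -0.15 to 0.16 for Col25a1 (WT CB, P7 to P35), where 0.016 came without P35 WT replicate 3, -0.18 to 0.021 for Col5a1 (WT CX, P7 to P35) and -0.0020 to 0.22 for Col4a2 (WT HIP, E17.5 to P7). Members under about 1 CPM rest on few reads, and 5 or 6 mice per group limit the smallest genotype difference that can be called. Members at an unadjusted p under 0.05 moved by over 1.5 times without these libraries. In E17.5 CX (2) it was 1 without WT replicate 6, HET 2 or HET 3. In E17.5 HIP (2) it was 4 without WT 4 or HET 2, 5 without WT 3, and 9 without WT 2 or WT 6. In E17.5 CB (2) it was 1 without WT 2, 3, 4 or 6 or HET 5, and 4 without WT 1 or HET 3. In P7 CX (5) it was 2 without HET 2, and 3 without WT 3, WT 6, HET 1 or HET 3. In P7 HIP (5) it was 3 without WT 3, 5 or 6 or HET 1, and 11 without HET 4. In P7 CB (6) it was 11 without WT 6 or HET 1, and 12 without WT 2. In P35 CX (4) it was 7 without WT 3 or HET 2, and 8 without HET 4. In P35 HIP (4) it was 1 without WT 3, and 2 without WT 2, WT 6, HET 2 or HET 6. In P35 CB (6) it was 3 without HET 1. In the E17.5 sum (7) it was 3 without HET 5, 4 without WT 1, 3, 4 or 5 or HET 3, and 11 without WT 2. In the P35 sum (5) it was 3 without WT 2 or HET 1, and no mouse moved the P7 sum (11) that far.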
